A study of Mus musculus with 14 samples.

Results

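The 10 genes described here carry and report the fibroblast growth factor (FGF) signal. They are the ligand Fgf4, the receptors Fgfr1, Fgfr2, Fgfr3 and Fgfr4, the feedback inhibitors Spry2, Spry4 and Dusp6, and the transcription factors Etv4 and Etv5. They were picked by gene symbol, each matched 1 of the 23174 rows of the deposited expression table, and all 10 passed the filter on low values in all 11 comparisons.

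The study followed mouse embryonic stem cells (ESCs) as they were turned with chemicals into cells of the extraembryonic endoderm type (chemically induced XEN cells, cXEN), with and without the zinc finger protein Zfp281. Polyadenylated RNA was sequenced in 14 libraries with paired reads of 150 bp. Of these, 12 form a course of 4 cell lines at 3 stages, with 1 library per line and stage, and the other 2 come from the established wild-type XEN lines XENB1 and XEN5. The 4 lines of the course were wild type (WT3), a Zfp281 knockout (KO3.34), the same knockout line with Zfp281 put back (Rescue3.34) and another Zfp281 knockout (KO2.6). All of them and XEN5 were labelled strain 129S1/SVImJ, while XENB1 was labelled 129S1. ESCs were grown without feeders in serum and LIF. For the stage called cXENp1 they were moved to XEN medium and then given 0.01 µM retinoic acid and 10 ng/mL activin A for 48 hours. Cells at cXENp3 had in addition been passaged on iMEF feeders and returned to gelatin in XEN medium. XEN medium held serum and no LIF, and for the established XEN lines it was conditioned by MEFs. No label names an added FGF, or an inhibitor of FGF receptors or MEK. WT3 and Rescue3.34 are called the Zfp281-present lines below, and KO3.34 and KO2.6 the knockout lines. Wild type and rescue are 1 line each, and Rescue3.34 and KO3.34 share their origin. Nothing in the labels says that libraries came from separately repeated cultures, so the p-values measure only the spread between these libraries.

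FGF ligands bind receptor tyrosine kinases together with heparan sulphate, and the receptors pass the signal through the adaptors FRS2 and GRB2 to RAS, RAF, MEK and ERK. ERK activity induces the ETS factors Etv4 and Etv5, and also the inhibitors Spry2, Spry4 and Dusp6 that damp the same pathway, so these transcripts are widely read as signs of FGF and ERK activity. In the early mouse embryo, precursors of the epiblast make Fgf4, which acts through Fgfr1 and Fgfr2 to direct neighbouring cells to primitive endoderm, the tissue that XEN lines represent.

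Promoter sequences are shown for Fgf4, which had the largest change of the 10 genes between stages, for Fgfr2 and Spry2, which moved in opposite directions at cXENp1, and for Dusp6, an inhibitor that was not called changed there. The RefSeq table gave a start for 7 of the 10 genes and none for Fgfr1, Spry4 and Etv4. Each sequence is the 250 bases before the annotated start in build GRCm38.p6, read 5′ to 3′ along the gene's own strand. Capitals mark matches, on either strand, to the GC box GGGCGG, to the CCAAT box or to the string TATATA. The windows were also searched on both strands for the core CCGGAA that ETS factors recognise, for the TATA box TATAAA, and for GGGGAGGGG.
Fgf4: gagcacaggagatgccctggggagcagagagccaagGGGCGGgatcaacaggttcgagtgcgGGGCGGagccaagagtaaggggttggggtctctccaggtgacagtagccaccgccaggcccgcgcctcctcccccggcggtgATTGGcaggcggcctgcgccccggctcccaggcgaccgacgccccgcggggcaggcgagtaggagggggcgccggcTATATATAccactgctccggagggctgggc
Fgfr2: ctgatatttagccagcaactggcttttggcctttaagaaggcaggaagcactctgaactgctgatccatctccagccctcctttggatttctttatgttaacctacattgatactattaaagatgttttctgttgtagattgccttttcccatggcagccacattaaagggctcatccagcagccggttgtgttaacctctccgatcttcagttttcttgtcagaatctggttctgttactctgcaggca
Spry2: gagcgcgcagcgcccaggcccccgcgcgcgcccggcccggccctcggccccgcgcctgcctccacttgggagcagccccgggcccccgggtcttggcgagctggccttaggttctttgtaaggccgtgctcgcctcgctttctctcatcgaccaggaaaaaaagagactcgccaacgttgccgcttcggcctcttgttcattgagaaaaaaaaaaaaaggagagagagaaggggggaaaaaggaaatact
Dusp6: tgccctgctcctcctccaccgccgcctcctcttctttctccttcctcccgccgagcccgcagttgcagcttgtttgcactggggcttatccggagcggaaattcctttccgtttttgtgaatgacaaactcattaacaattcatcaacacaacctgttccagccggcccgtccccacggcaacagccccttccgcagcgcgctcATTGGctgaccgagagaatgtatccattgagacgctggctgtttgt
The Fgf4 window lies at chr7:144861136-144861385 on the plus strand, with a GC content of 71.2%. It holds 2 GC boxes, 1 CCAAT box and a TATATATA run near the start, which counts as 4 overlapping TATATA matches over both strands. Among 32851 windows of this length, 32.7% hold a GC box, 33.8% a CCAAT box and 5.25% a TATATA. The Fgfr2 window (chr7:130266809-130267058, minus strand, 44% GC) and the Spry2 window (chr14:105896820-105897069, minus strand, 62.4% GC) hold none of the strings searched. The Dusp6 window (chr10:99262981-99263230, plus strand, 56.4% GC) holds 1 CCAAT box. CCGGAA (12% of all windows), TATAAA (12.4%) and GGGGAGGGG (5.75%) are in none of the 4 shown. These matches describe the letters of the windows and nothing about binding.

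Expression is given in FPKM, fragments per length of transcript and per mapped fragments of the library, as deposited. The files give no read counts, so the depth of each library is unknown. A change is a difference of log2(FPKM + 1), a scale that understates folds of genes at low FPKM. It is called at an adjusted p under 0.05 in limma, with Benjamini-Hochberg adjustment over all genes tested. An exact permutation test of 2 lines against 2 cannot go below p = 0.33, so the calls rest on the spread that limma shares across groups and genes. Groups of 2 lines that do not overlap reach that p at best, and the share of all genes so separated was not computed.

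The targeted gene was checked first. Zfp281 measured 28.5, 25.1 and 34.0 FPKM in WT3 at the ESC, cXENp1 and cXENp3 stages, and 27.7, 27.2 and 38.6 in Rescue3.34. It measured 3.92, 1.29 and 3.96 FPKM in KO3.34, 0, 0 and 0.56 in KO2.6, 10.6 in XENB1 and 12.5 in XEN5, so every knockout library was below every other. The sum of 10 ESC markers was 3079 to 4190 FPKM in ESCs, 115 to 169 at cXENp1 and 86.1 to 119 in the XEN lines. At cXENp3 it was 4520 FPKM in WT3 and 2497 in Rescue3.34, against 665 in KO3.34 and 283 in KO2.6. Of 14 XEN markers, Lama1, Col4a1, Col4a2 and Sparc are listed at 0 in both knockout libraries of cXENp3 and both XEN lines but not in WT3 and Rescue3.34 at that stage. They were left out of the sums below, a choice made after the data were seen. The other 10 summed at cXENp3 to 33.3 FPKM (WT3) and 62.0 (Rescue3.34), against 4113 (KO3.34) and 2943 (KO2.6), and to 2816 to 3834 in the XEN lines. The Zfp281-present libraries labelled cXENp3 were closer to ESCs than to the XEN lines in these markers. For them the label gives the stage of the protocol and not the cell type. KO2.6 had a higher XEN marker sum than the other lines already in ESCs (73.6 FPKM against 11.9 to 15.5) and at cXENp1 (776 against 96.7 to 115). Fibroblast markers summed to 1281 FPKM in Rescue3.34 at cXENp3, against 38.1 in WT3 and 294 to 381 in the knockout lines. They summed to 662 FPKM in XENB1 and 571 in XEN5, so high values were not limited to Rescue3.34. In their description field, 3 ESC libraries (all but that of KO2.6) start with JH and the other 11 libraries with XH. In bulk RNA, fewer cells of a type and less RNA per cell cannot be told apart.

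From ESC to cXENp1, the ligand and 4 of the 5 feedback and ETS genes fell while 2 receptors rose. The ESC marker sum fell as well, from 3079 to 4190 FPKM in ESCs to 115 to 169 at cXENp1, and its part in these changes was not tested. Of the 10 genes, 2 were called higher and 5 lower, against 28.5% of all genes called in either direction (14.7% higher, 13.8% lower), and their median change was -1.21 beside 0.00 over all genes. From cXENp1 to cXENp3, 4 were called higher and 2 lower (7.45% of all genes called, 2.47% higher and 4.98% lower), with a median of 1.52 beside 0.04. Between cXENp3 and ESC 1 of the 10, Fgfr2, was called, upward (9.35% of all genes called, 5.34% higher). This count averages the 4 lines, which did not all move alike. Etv5 changed by 1.10 (WT3) and 0.67 (Rescue3.34) but by -1.31 (KO3.34) and -2.03 (KO2.6). For Fgfr3 the changes were 0.16, -0.29, 3.18 and 3.79 in that order. The interaction of cXENp3 over ESC was called for 2 of the 10 upward and 2 downward (22.6% of all genes called), as given below.

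With loss of Zfp281, none of the 10 was called in ESCs (1.97% of all genes called, 1.05% higher and 0.917% lower) and 1 at cXENp1, upward (0.485%, with 0.364% higher and 0.121% lower). At cXENp3, 2 were called higher and 3 lower, where 41.9% of all genes were called (22.9% higher, 19.0% lower), and the share among the 10 was close to that. In limma, 1 of the 10 in ESCs and 4 at cXENp1 had an unadjusted p under 0.05. Of all 13191 genes tested, 2762 in ESCs and 1486 at cXENp1 had such a p.

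Fgf4, the main FGF of the early epiblast, was abundant in ESCs, nearly lost at cXENp1 and high again at cXENp3 in the Zfp281-present lines (XLOC_018548, mm9 chr7:152047291-152051148). ESC levels were 83.4 FPKM (WT3), 79.8 (Rescue3.34), 175 (KO3.34) and 78.3 (KO2.6). Values at cXENp1 were 0.33, 0.58, 0.57 and 0.05 FPKM in the same order, below every ESC value. At cXENp3 the levels were 89.6, 31.6, 17.0 and 1.5 FPKM, and both knockout lines were below both Zfp281-present lines. Fgf4 is listed at 0 in XENB1 and XEN5. No fold is given for that, because Eef1a1, a translation factor that every cell uses, is also listed at 0 in 10 of the 14 libraries.

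On the log2(FPKM + 1) scale Fgf4 fell in all 4 lines to cXENp1, with changes of -5.99 (WT3), -5.68 (Rescue3.34), -6.81 (KO3.34) and -6.23 (KO2.6). All cXENp1 values lie under the 1 FPKM added before the log, so these falls mostly restate the ESC levels, and their sizes are not compared between lines. The rise to cXENp3, which mostly restates the cXENp3 level in the same way, was 6.09 (WT3), 4.37 (Rescue3.34), 3.52 (KO3.34) and 1.25 (KO2.6). Over the 4 lines it came to 3.81 ± 0.71 (SE, adjusted p = 0.0139), a call lost without KO3.34 (adjusted p = 0.114) or Rescue3.34 (0.0851). At cXENp3 the knockout lines differed by -3.02 ± 0.80 (SE, 2 lines against 2, adjusted p = 0.0137). This difference was -2.28 without WT3 (adjusted p = 0.206) and -1.59 without KO2.6 (0.0616), and neither was called. In ESCs the difference was 0.52 ± 0.80 (adjusted p = 0.792) and at cXENp1 -0.17 ± 0.80 (adjusted p = 0.980). Between cXENp3 and ESC the change over the 4 lines was -2.37 ± 0.71 (adjusted p = 0.0609), and it was called without WT3 (-3.19, adjusted p = 0.0153).

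**Figure D1:**
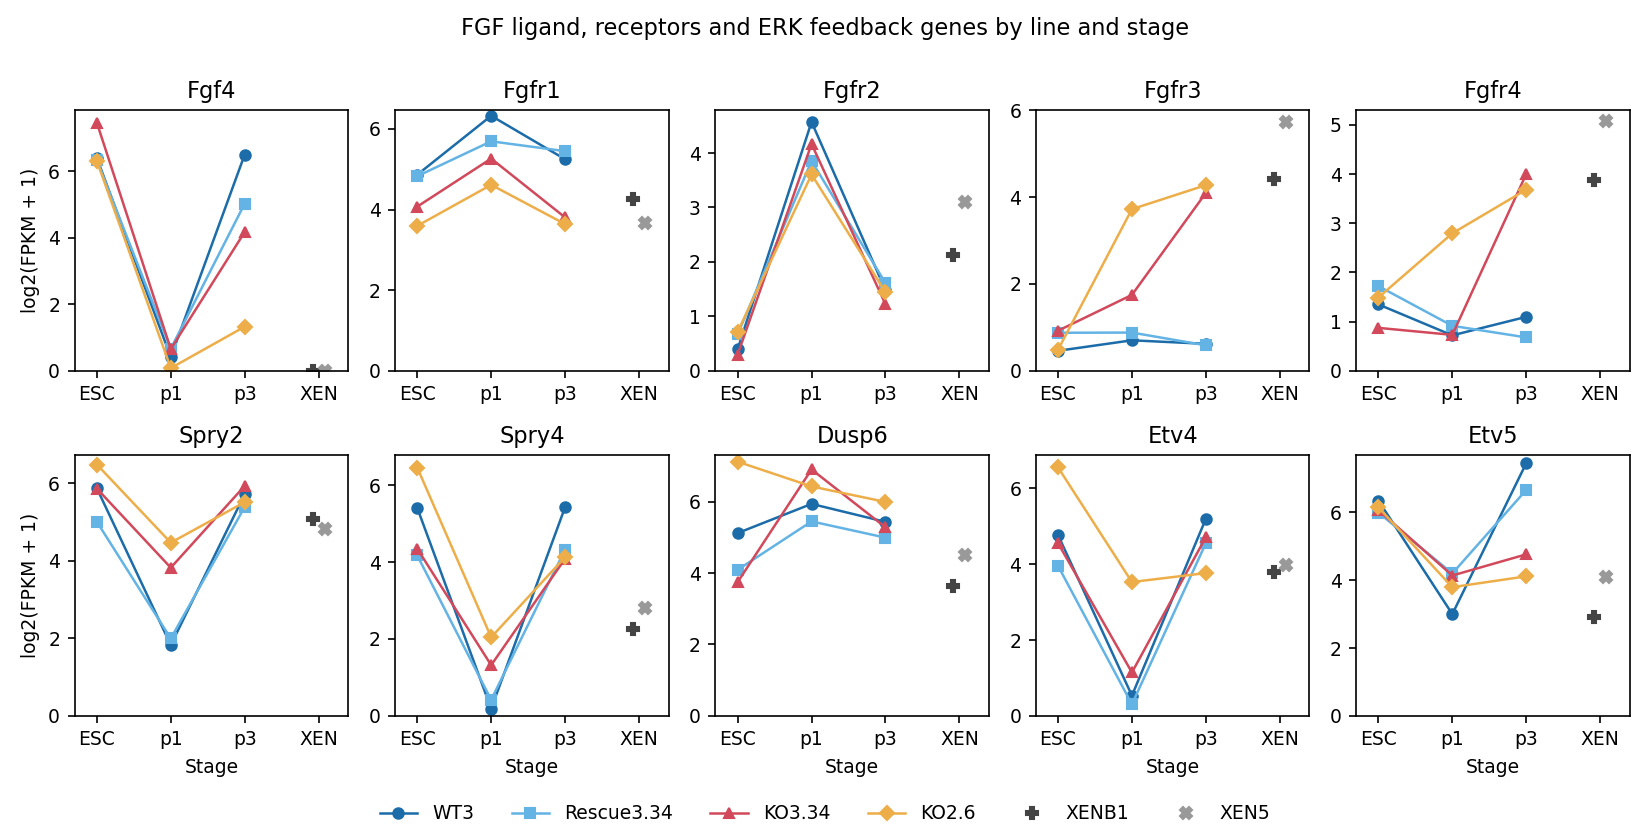
Level of each of the 10 genes as log2(FPKM + 1) on vertical axes that differ between panels, at the ESC, cXENp1 (p1) and cXENp3 (p3) stages; joined points are the 4 lines of the course, 1 library each, and the plus and cross are the XEN lines. Fgf4, Spry2, Spry4, Etv4 and Etv5 dip at p1 in all 4 lines, Fgfr2 peaks there, and at p3 Fgfr3 and Fgfr4 are high in both knockout lines.

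Fgfr1, the receptor that the epiblast lineage mainly uses, was lower in the knockout lines at each stage and highest at cXENp1 in every line (XLOC_019780, mm9 chr8:26629244-26686186). ESC levels were 28.1 FPKM (WT3), 27.4 (Rescue3.34), 15.8 (KO3.34) and 11.1 (KO2.6). cXENp1 gave 79.3, 50.8, 37.4 and 23.5 FPKM. The cXENp3 libraries had 37.0, 42.7, 13.0 and 11.5 FPKM, next to 18.1 in XENB1 and 11.7 in XEN5. Knockout and Zfp281-present values did not overlap at any of the 3 stages, which share the same 4 lines. The share of all genes separated in this way was not computed. Only the difference at cXENp3 was called. It was -1.63 ± 0.28 (SE, 2 lines against 2, adjusted p = 0.00202), and -1.53 without the Rescue3.34 library that was high in fibroblast markers (adjusted p = 0.0114). In ESCs it was -1.01 ± 0.28 (adjusted p = 0.0873) and at cXENp1 -1.07 ± 0.28 (adjusted p = 0.160). Without KO3.34 both were called, at -1.25 (adjusted p = 0.0332) and -1.40 (0.0433). KO2.6 was then the 1 knockout line, assumed to vary like the other groups. Without the KO2.6 library of the stage they were -0.77 (adjusted p = 0.309) and -0.75 (0.932). The difference at cXENp3 exceeded that in ESCs by -0.61 ± 0.40, which was not called (interaction, adjusted p = 0.289).

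Over the 4 lines Fgfr1 rose by 1.14 ± 0.21 from ESC to cXENp1 (SE, adjusted p = 0.00525) and fell by 0.94 ± 0.21 from cXENp1 to cXENp3 (adjusted p = 0.0273). Both calls needed the line as a block: without it the adjusted p was 0.103 and 0.308. Once a term for that prefix was added, the rise was 1.00 (adjusted p = 0.134). KO2.6, whose libraries share 1 prefix, changed by 1.02. The fall was also not called without WT3 (adjusted p = 0.105), KO3.34 (0.211), KO2.6 (0.0687) or the KO2.6 cXENp1 library (0.0681).

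Fgfr2, which with Fgfr1 receives the Fgf4 signal in primitive endoderm, peaked at cXENp1 in all lines (XLOC_019541, mm9 chr7:137305965-137410322). ESC levels were 0.31 FPKM (WT3), 0.59 (Rescue3.34), 0.23 (KO3.34) and 0.64 (KO2.6). In the same order, cXENp1 libraries held 22.8, 13.5, 17.0 and 11.2 FPKM. Values at cXENp3 were 1.79, 2.05, 1.33 and 1.72 FPKM. The 3 stages did not overlap, and the XEN lines, at 3.38 FPKM in XENB1 and 7.58 in XEN5, lay between cXENp3 and cXENp1. The rise was 3.53 ± 0.25 (SE, 4 lines, adjusted p = 8.05e-05) and the change from cXENp1 to cXENp3 was -2.61 ± 0.25 (adjusted p = 0.000742). Both were called under all 14 alternatives, and KO2.6, with its single prefix, changed by 2.90 and -2.17.

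Knockout and Zfp281-present lines were not called different in Fgfr2 at any stage. The differences were -0.03 ± 0.31 in ESCs, -0.33 ± 0.31 at cXENp1 and -0.21 ± 0.31 at cXENp3 (SE, 2 lines against 2). At cXENp3 Fgfr2 was 0.92 ± 0.25 above ESCs (4 lines, adjusted p = 0.0486), a call that stood in 4 of 14 alternatives. It was lost on leaving out any of WT3 (adjusted p = 0.0632), KO3.34 (0.247), Rescue3.34 (0.133) or KO2.6 (0.0872).

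Fgfr3, best known for restraining bone growth, was close to absent in ESCs and high in the XEN lines (XLOC_015140, mm9 chr5:34064373-34079717). ESC levels were 0.37 FPKM (WT3), 0.83 (Rescue3.34), 0.89 (KO3.34) and 0.40 (KO2.6). The cXENp1 libraries had 0.62, 0.84, 2.36 and 12.2 FPKM. cXENp3 gave 0.54, 0.50, 16.1 and 18.4 FPKM, next to 20.4 in XENB1 and 52.4 in XEN5. The Zfp281-present lines stayed below 1 FPKM at all stages, and KO2.6 was high at cXENp1 where KO3.34 was not. The knockout difference at cXENp3 was 3.59 ± 0.51 (SE, 2 lines against 2, adjusted p = 0.000773), called under all 12 alternatives that kept the gene. At cXENp1 it was 1.95 ± 0.51 (adjusted p = 0.150). It was called without KO3.34 (2.93, adjusted p = 0.00693), which leaves KO2.6 alone, and was 0.96 without the KO2.6 cXENp1 library (adjusted p = 0.622).

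Fgfr4, the receptor known in liver for the bile acid signal of Fgf15, followed the same pattern at cXENp3 (XLOC_005070, mm9 chr13:55254179-55270120). ESC levels were 1.55 FPKM (WT3), 2.30 (Rescue3.34), 0.83 (KO3.34) and 1.80 (KO2.6). Values at cXENp1 were 0.64, 0.88, 0.66 and 5.94 FPKM. At cXENp3 the levels were 1.14, 0.60, 15.0 and 11.8 FPKM, next to 13.6 in XENB1 and 32.8 in XEN5. Both knockout lines were above both Zfp281-present lines at cXENp3, by 2.96 ± 0.54 (SE, 2 lines against 2, adjusted p = 0.00262). The call was lost without WT3 (adjusted p = 0.0535). At cXENp1 the difference was 0.95 ± 0.54 (adjusted p = 0.576), where of the knockout lines KO2.6 was high and KO3.34 was not. Without KO3.34 it was called at 1.98 (adjusted p = 0.0237), and without the KO2.6 cXENp1 library it was -0.09 (adjusted p = 1), so its sign rests on that 1 library. The same library had the highest XEN marker sum at cXENp1, whose part in the difference was not tested.

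The knockout difference at cXENp3 was larger than in ESCs by 3.55 ± 0.72 for Fgfr3 (SE, interaction, adjusted p = 0.0105) and by 3.31 ± 0.77 for Fgfr4 (adjusted p = 0.0168). Of the 10 genes, 2 had a called interaction upward and 2 downward, where 22.6% of all genes were called (13.7% higher, 8.85% lower). Without WT3 neither receptor's interaction was called (adjusted p = 0.156 and 0.166), nor without Rescue3.34 (0.137 and 0.181). From cXENp1 to cXENp3 the interactions were 1.64 and 2.01 (adjusted p = 0.144 and 0.107), and both were called without KO2.6 (2.54 and 3.20, adjusted p = 0.0194 and 0.0127) or without its cXENp1 library (2.63 and 3.04, adjusted p = 0.00860 and 0.00872). The XEN marker sum moved with both receptors, at 4113 and 2943 FPKM in the knockout cXENp3 libraries against 33.3 and 62.0 in the others, and its part was not tested.

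**Figure D2:**
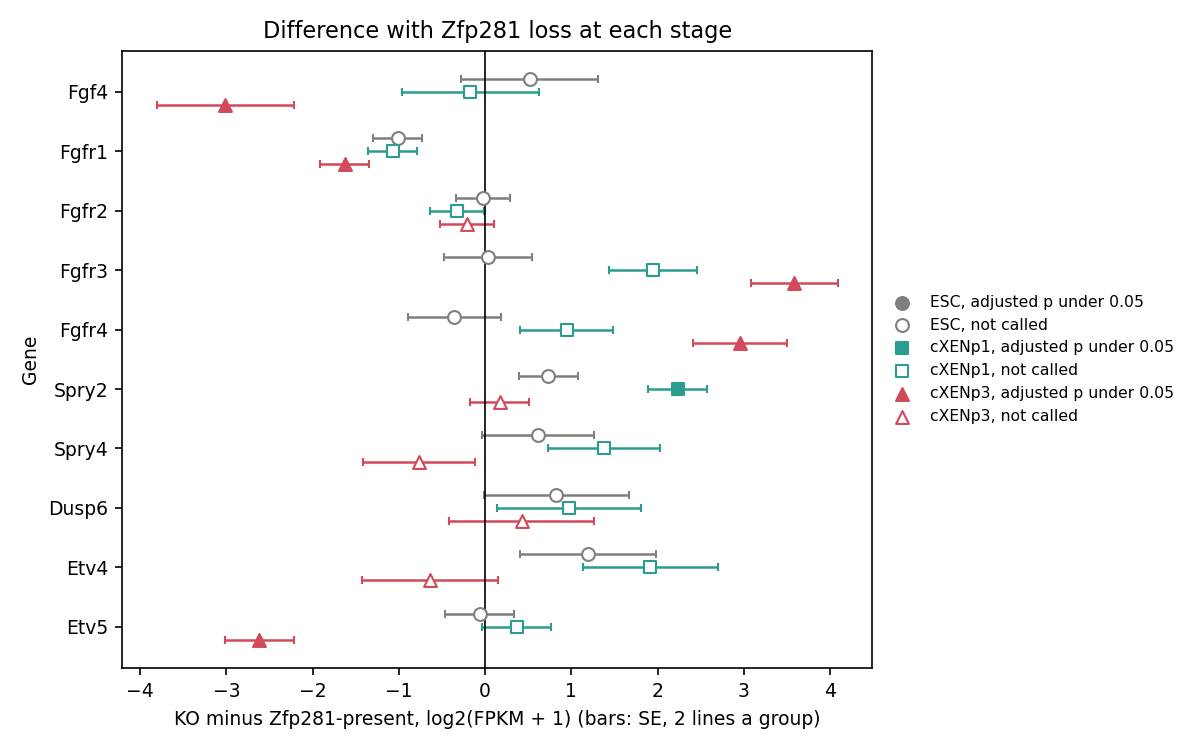
Difference of the knockout from the Zfp281-present lines for each gene as log2(FPKM + 1) on the horizontal axis, at ESC (circles), cXENp1 (squares) and cXENp3 (triangles), 2 lines a group, with the limma SE as bars; filled symbols have an adjusted p under 0.05. At cXENp3 Fgfr3 (3.59) and Fgfr4 (2.96) lie to the right and Fgf4 (-3.02), Etv5 (-2.62) and Fgfr1 (-1.63) to the left.

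FPKM is scaled by transcript length, so the 4 receptors can be set beside each other. Fgfr1 made up 79.6% to 92.6% of the summed receptor FPKM in the 4 ESC libraries. At cXENp1 its share was 76.7% (WT3), 77.0% (Rescue3.34), 65.2% (KO3.34) and 44.4% (KO2.6), and Fgfr2 held 20.4% to 29.6%. At cXENp3 Fgfr1 was back at 91.5% in WT3 and 93.1% in Rescue3.34. In the knockout lines at that stage it held 28.5% and 26.4%, while Fgfr3 held 35.5% and 42.3% and Fgfr4 33.0% and 27.3%. Fgfr3 was also the leading receptor in XENB1 (36.8%) and XEN5 (50.2%). The receptor sum itself was 40.5 FPKM (WT3), 45.8 (Rescue3.34), 45.4 (KO3.34) and 43.4 (KO2.6) at cXENp3, so the lines differed at this stage in which receptors they held more than in the sum. These shares are descriptions, with 1 library behind each.

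**Figure D3:**
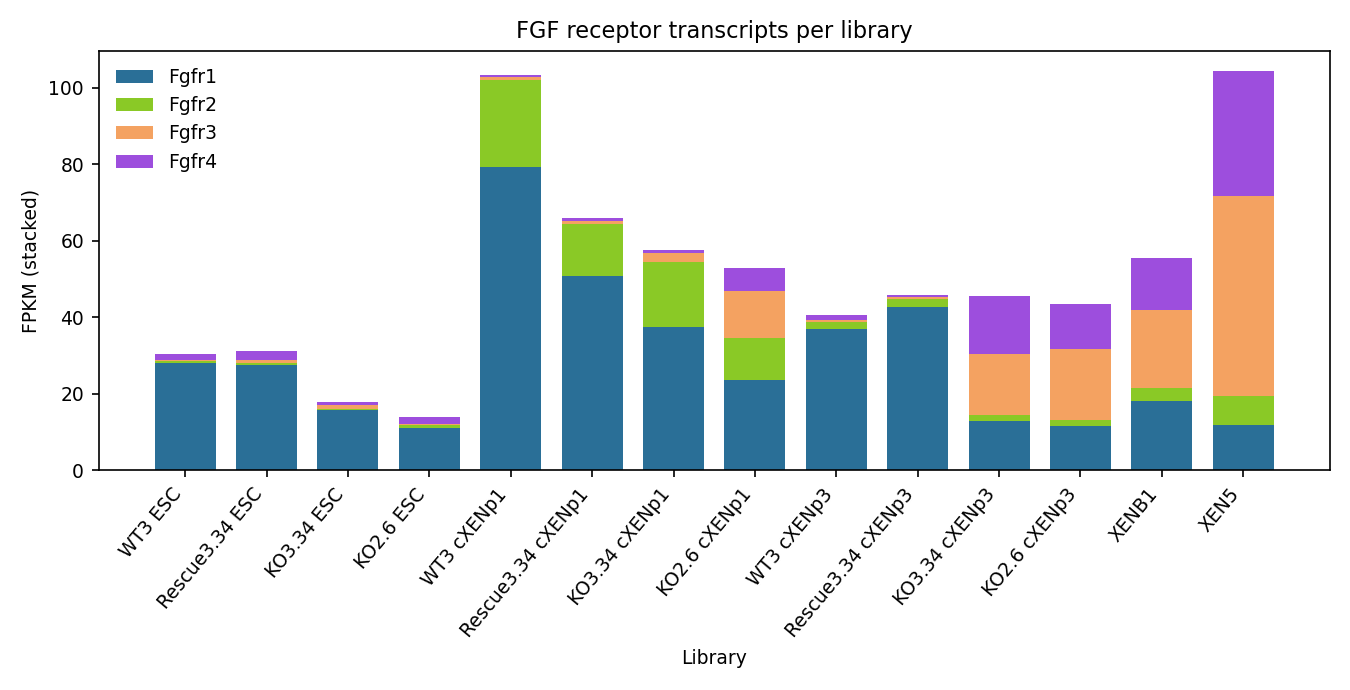
Stacked FPKM of Fgfr1, Fgfr2, Fgfr3 and Fgfr4 (vertical axis) in each of the 14 libraries (horizontal axis), 1 bar a library, with no error. Fgfr1 fills most of each bar in ESCs and in the Zfp281-present lines, Fgfr2 appears at cXENp1, and Fgfr3 and Fgfr4 fill most of the bars of the knockout lines at cXENp3.

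Spry2, an inhibitor of receptor tyrosine kinase signalling, was high in ESCs and at cXENp3 and low at cXENp1, where the knockout lines had more of it than the others (XLOC_006541, mm9 chr14:106291164-106296036). ESC levels were 57.6 FPKM (WT3), 31.2 (Rescue3.34), 57.2 (KO3.34) and 88.6 (KO2.6). cXENp1 gave 2.55, 2.99, 13.2 and 21.1 FPKM. The cXENp3 libraries had 51.7, 40.9, 60.2 and 44.7 FPKM, next to 32.9 in XENB1 and 27.3 in XEN5. No cXENp1 value reached an ESC or cXENp3 value. The change from ESC to cXENp1 was -2.78 ± 0.41 (SE, 4 lines, adjusted p = 0.00199) and from cXENp1 to cXENp3 2.61 ± 0.41 (adjusted p = 0.0068). The second was not called without KO3.34 (adjusted p = 0.0630) or Rescue3.34 (0.0581).

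At cXENp1 Spry2 was the 1 gene of the 10 called for loss of Zfp281, at 2.23 ± 0.34 above the Zfp281-present lines (SE, 2 lines against 2, adjusted p = 0.0268). The direction was the same in both knockout lines against both others. The call was lost without WT3 (adjusted p = 0.398), Rescue3.34 (0.357), KO2.6 (0.138) or the KO2.6 cXENp1 library (1.91, adjusted p = 0.238). In ESCs the difference was 0.73 ± 0.34 (adjusted p = 0.259), and its change from ESC to cXENp1 was 1.5 ± 0.49, which was not called (adjusted p = 0.314). At cXENp3 it was 0.17 ± 0.34 (adjusted p = 0.718), and the change in it from cXENp1 to cXENp3 was -2.06 ± 0.49 (interaction, adjusted p = 0.0276). For that interaction 2 of the 10 genes were called, both downward, where 11.4% of all genes were called (7.19% higher, 4.26% lower). It was not called without WT3 (adjusted p = 0.352), Rescue3.34 (0.0973), KO2.6 (0.114) or the KO2.6 cXENp1 library (0.0714).

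Spry4, a second member of the Sprouty family, had the largest estimated fall of the feedback genes at cXENp1. ESC levels were 41.5 FPKM (WT3), 17.0 (Rescue3.34), 19.3 (KO3.34) and 86.8 (KO2.6). In the same order, cXENp1 libraries held 0.14, 0.33, 1.49 and 3.12 FPKM, all below every other library. The WT3 and Rescue3.34 values lie under the 1 FPKM added before the log. The sizes of their changes thus mostly restate the levels at the other stages. Values at cXENp3 were 42.0, 19.0, 16.0 and 16.5 FPKM, above XENB1 at 3.76 and XEN5 at 6.0. The change from ESC to cXENp1 was -4.11 ± 0.49 (SE, 4 lines, adjusted p = 0.00073) and back to cXENp3 3.50 ± 0.49 (adjusted p = 0.00399), and both were called under all 14 alternatives. Both knockout lines were above both Zfp281-present lines at cXENp1, by 1.38 ± 0.65, which was not called (adjusted p = 0.479).

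Dusp6, a phosphatase that takes the activating phosphates off ERK, was not called changed at cXENp1 (XLOC_001674, mm9 chr10:98725865-98730123). ESC levels were 33.8 FPKM (WT3), 16.1 (Rescue3.34), 12.4 (KO3.34) and 138 (KO2.6). The cXENp1 libraries had 60.4, 42.7, 119 and 85.2 FPKM. cXENp3 gave 42.3, 30.9, 38 and 62.8 FPKM, next to 11.6 in XENB1 and 21.5 in XEN5. Dusp6 was higher at cXENp1 than in ESCs in 3 of 4 lines, by 0.82, 1.36 and 3.16. It was lower by a change of -0.69 in KO2.6, the line whose libraries share 1 prefix. Over the 4 lines the change was 1.16 ± 0.48 (SE, adjusted p = 0.0998). It was called at 1.72 without the KO2.6 ESC library (adjusted p = 0.0152) and at 1.42 with quantile normalization (adjusted p = 0.0496), and with the prefix as a term it was -0.53 (adjusted p = 0.550). Knockout differences were 0.83 ± 0.84 in ESCs, 0.97 ± 0.84 at cXENp1 and 0.42 ± 0.84 at cXENp3 (SE), none of them called. Without KO3.34 the difference in ESCs was called (2.52, adjusted p = 0.0190), and without the KO2.6 ESC library it was -0.86 (adjusted p = 0.429), so its sign rests on which knockout line is kept.

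Etv4, an ETS factor induced by ERK, moved like the Sprouty genes (XLOC_003868, mm9 chr11:101631056-101646624). ESC levels were 26.3 FPKM (WT3), 14.5 (Rescue3.34), 22.5 (KO3.34) and 93.2 (KO2.6). Values at cXENp1 were 0.45, 0.24, 1.21 and 10.6 FPKM. Those of WT3 and Rescue3.34 lie under the 1 FPKM added before the log, so their changes mostly restate the levels at the other stages. At cXENp3 the levels were 35.8, 22.5, 25.3 and 12.6 FPKM, next to 12.8 in XENB1 and 14.7 in XEN5. Each line was lower at cXENp1 than in ESCs, and KO2.6 stood apart by its high ESC and cXENp1 values. The changes were -3.58 ± 0.62 (SE, 4 lines, adjusted p = 0.00391) to cXENp1 and 3.18 ± 0.62 (adjusted p = 0.0164) back to cXENp3. The rise was 0.24 in KO2.6 against 3.57 to 4.67 in the other lines, and was not called without WT3 (adjusted p = 0.0672), KO3.34 (0.142) or Rescue3.34 (0.106). No knockout difference in Etv4 was called at any stage, with values of 1.19 ± 0.79, 1.92 ± 0.79 and -0.64 ± 0.79 (SE) in order of stage. Without KO3.34, with KO2.6 as the 1 knockout line, the differences in ESCs (2.19, adjusted p = 0.0206) and at cXENp1 (3.11, 0.0160) were called, as were the interactions of cXENp3 over ESC (-3.30, 0.00852) and over cXENp1 (-4.22, 0.0120). Without the KO2.6 library of the stage, the difference was 0.19 in ESCs (adjusted p = 0.979) and 0.73 at cXENp1 (adjusted p = 1).

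Etv5, the close relative of Etv4, was high again at cXENp3 in the Zfp281-present lines and low in the knockout lines (XLOC_007874, mm9 chr16:22381386-22439643). ESC levels were 80.4 FPKM (WT3), 62.8 (Rescue3.34), 66.0 (KO3.34) and 69.9 (KO2.6). cXENp1 gave 7.0, 17.4, 16.6 and 12.9 FPKM. The cXENp3 libraries had 174, 100.2, 26.1 and 16.3 FPKM, next to 6.46 in XENB1 and 16.2 in XEN5. At cXENp3 the Zfp281-present lines were above all their ESC values and the knockout lines below all ESC values. The change from ESC to cXENp1 was -2.36 ± 0.59 (SE, 4 lines, adjusted p = 0.0183), lost without KO3.34 (adjusted p = 0.0657), Rescue3.34 (0.0643) or the KO2.6 ESC library (0.0574). The knockout difference at cXENp3 was -2.62 ± 0.40 (2 lines against 2, adjusted p = 0.00106), called under all 13 alternatives. It differed from that in ESCs by -2.55 ± 0.57 (interaction, adjusted p = 0.0141) and from that at cXENp1 by -2.98 ± 0.57 (adjusted p = 0.0142). Without WT3 these interactions had adjusted p = 0.131 and 0.247, and without KO2.6 0.0934 and 0.0650. The first had 0.0636 without Rescue3.34. The rise from cXENp1 to cXENp3 over the 4 lines, 1.96 ± 0.59 (adjusted p = 0.0805), was called without KO2.6 (2.51, adjusted p = 0.0475).

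Etv5 and Fgf4 were the genes of the 10 that were called lower in knockout lines at cXENp3 together with Fgfr1, and the ESC marker sum moved with them (4520 and 2497 FPKM against 665 and 283). Its part in these differences was not tested. Of the feedback and ETS genes at that stage, Etv5 was called and Spry2 (0.17), Dusp6 (0.42), Etv4 (-0.64) and Spry4 (-0.77) were not. For Fgf4 the difference at cXENp3 exceeded that in ESCs by -3.53 ± 1.12 (SE, interaction, adjusted p = 0.0483), a call that stood in 5 of 14 alternatives. Without WT3, Rescue3.34 or KO2.6 its adjusted p was 0.339, 0.163 and 0.0600. Its interaction of cXENp3 over cXENp1, -2.85 ± 1.12 (adjusted p = 0.115), was called without KO3.34 (-3.98, 0.0217). Between cXENp1 and ESC no interaction was called for any of the 10 genes, where 0.0379% of all genes were called in limma, and 2 of the 10 had an unadjusted p under 0.05. Without KO3.34 that of Fgfr3 was called (3.12, adjusted p = 0.0411).

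When a term for the JH or XH prefix was added to the model, in which KO2.6 is the 1 line with an XH library in ESCs, 4 calls between ESC and cXENp1 were lost. They were Fgfr1, given above, Spry2 (-2.80, adjusted p = 0.0802), Etv4 (-4.50, 0.0655) and Etv5 (-3.18, 0.110). Within KO2.6 alone, where the prefix does not vary, the changes were -2.02 for Spry2, -4.41 for Spry4, -3.03 for Etv4 and -2.35 for Etv5. Spry4 was not among the lost calls (-5.12 with the term, adjusted p = 0.0262 in limma). Fgfr1, which was among them, changed by 1.02 in KO2.6. Each of these values within KO2.6 rests on 1 library per stage. For the other 3 lines the prefix and the ESC stage cannot be told apart.

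In the established XEN lines, Fgfr2, Fgfr3 and Fgfr4 were higher than in ESCs, and Etv5 and Spry4 were lower. Of the 10 genes, 3 were called higher and 3 lower, Fgf4 with its listed 0 among them, where 41.9% of all genes were called (22.2% higher, 19.7% lower). Fgfr3 was higher by 4.40 ± 0.39 (SE, 2 XEN lines against 4 ESC libraries, adjusted p = 0.000137), Fgfr4 by 3.12 ± 0.40 (adjusted p = 0.000726) and Fgfr2 by 2.1 ± 0.32 (adjusted p = 0.00157). Etv5 was lower by a change of -2.64 ± 0.33 (adjusted p = 0.000649). Spry4 changed by -2.57 ± 0.61 (adjusted p = 0.0119), a call lost without XENB1 (0.0979) or XEN5 (0.0566). Fgfr1 (-0.38 ± 0.40), Spry2 (-0.85 ± 0.37), Dusp6 (-0.95 ± 0.85) and Etv4 (-1.08 ± 0.63) were not called. Spry2 was called without Rescue3.34 (-1.12, adjusted p = 0.0182). The 4 ESC libraries here come from both the knockout and the Zfp281-present lines. All but that of KO2.6 have the JH prefix and both XEN libraries have XH. No prefix term was fitted in this comparison, and the part of the prefix was not tested.

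Between the knockout lines at cXENp3 and the XEN lines none of the 10 genes was called different, where 4.12% of all genes were called in limma (1.48% higher, 2.64% lower) and 4 of the 10 had an unadjusted p under 0.05. The XEN lines were higher by 0.89 ± 0.56 for Fgfr3 and 0.63 ± 0.58 for Fgfr4 (SE, 2 lines against 2). They differed by 1.28 ± 0.36 for Fgfr2 (adjusted p = 0.0765), -1.58 ± 0.63 for Spry4 (0.191) and -0.93 ± 0.46 for Etv5 (0.280). Dusp6 differed by -1.57 ± 0.82 (adjusted p = 0.314) and Spry2 by -0.77 ± 0.33 (0.221). The largest difference, -2.75 ± 0.76 for Fgf4 (adjusted p = 0.0696), rests on its listed 0 in the XEN lines. With a pseudocount of 0.1 it was called (-5.71, adjusted p = 0.00909). Without XENB1 the difference of Fgfr2 was called (1.77, adjusted p = 0.0392), and that of Fgf4, listed at 0 in the XEN lines, was called without KO2.6 (adjusted p = 0.00833). With SEs of this size, differences of 1 or more on the log2 scale could go uncalled. The comparisons of cXENp3 knockout lines with Zfp281-present lines and with XEN lines share the knockout libraries, and the values above are given side by side.

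Beyond the 10 genes, 93 genes of the pathway were taken in 5 lists, of which 80 passed the filter over the course and 74 in XEN lines and ESCs. At cXENp1, 20 of 80 were called higher than in ESCs and 4 lower, a share close to the 28.5% of all genes called (14.7% higher, 13.8% lower), and the median change was 0.27 beside 0.00 over all genes. The co-receptor and heparan sulphate list, with 20 genes tested, held 9 of the 20 called higher. In it Gpc3, a cell surface proteoglycan, rose by 3.37 ± 0.43 (SE, 4 lines, adjusted p = 0.000957) and Flrt3, a membrane partner of FGF receptors, by 3.12 ± 0.78 (adjusted p = 0.0179). The feedback list, with 15 genes tested, held 3 called higher, and its other 12 were not called. The largest rise in it was that of Errfi1, an inhibitor of the EGF receptor, at 2.99 ± 0.40 (adjusted p = 0.00117). Those that fell were the ligand Fgf17 (-2.47 ± 0.56, adjusted p = 0.0124), the syndecan Sdc4 (-1.99), the adaptor Frs3 (-1.46) and the kinase Map2k1, outside the naming rule, at -1.12. The feedback genes called at this stage did not all move alike. Spry2 and Spry4 fell while Errfi1, Dusp5 (2.67) and Il17rd (1.70), the last pair named after their values were seen, rose.

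Between cXENp3 and ESC, 11 of the 80 were called higher and none lower (9.35% of all genes called, 5.34% higher), with 0.51 as the median beside -0.01. Over the 4 lines Flrt2, a relative of Flrt3, rose by 3.04 ± 0.74 (SE, adjusted p = 0.0379). The heparan sulphatase Sulf1 rose by 2.69 ± 0.35 (adjusted p = 0.00879) and Egr1, an immediate early gene of the ERK pathway, by 2.54 ± 0.50 (adjusted p = 0.0247). These averages pool Zfp281-present and knockout lines. At cXENp3 Flrt2 had 0.44 FPKM (WT3), 4.34 (Rescue3.34), 31.6 (KO3.34) and 36.3 (KO2.6). The limma interaction of cXENp3 over ESC was called for Flrt2 (3.52, adjusted p = 0.0120) and Sulf1 (1.59, 0.0354). It was not called for Egr1 (0.45, 0.727), and 22.6% of all genes were called. From cXENp1 to cXENp3, 5 of the 80 rose and 6 fell (7.45% of all genes called, 2.47% higher and 4.98% lower). Among them the immediate early genes Fos (1.72), Ier3 (1.57) and Junb (1.30) rose, and Gpc3 (-3.16), the ERK phosphatase Dusp5 (-1.48) and Fgf13 (-1.42) fell. Rescue3.34 was highest of all libraries in fibroblast markers at cXENp3. Without that library 129 of all genes were called in limma between cXENp3 and ESC, against 1233 with it. From cXENp1 to cXENp3 the numbers were 635 and 983. Its part in the counts of the 80 genes was not tested.

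Loss of Zfp281 changed 1 of the 80 in ESCs, Sulf1 (-2.15 ± 0.32 SE, adjusted p = 0.0186), where 1.97% of all genes were called. At cXENp1 none of the 80 was called in limma (0.485% of all genes called), and 14 had an unadjusted p under 0.05. At cXENp3, 25 were called higher and 10 lower, a share close to the 41.9% of all genes, with a median of 0.46 beside 0.01. Klb, the co-receptor that Fgf15 and Fgf21 need, had 28.3 and 47.1 FPKM in the knockout lines against 0.08 and 0.05 in WT3 and Rescue3.34, and the difference was 5.14 ± 0.82 (adjusted p = 0.00131). Klb had 33.1 FPKM in XENB1 and 54.5 in XEN5. Gpc6 was higher by 4.51 ± 0.43 (adjusted p = 0.000138) and Flrt3 by 4.44 ± 0.62 (adjusted p = 0.000755). Gpc3 (-3.00 ± 0.73, adjusted p = 0.0098), Fgf17 (-2.55 ± 0.37, adjusted p = 0.000813) and Fgf15 (-2.13 ± 0.75, adjusted p = 0.0436) were lower.

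Of the other ligands, 13 were tested, and at cXENp3 6 were called higher in the knockout lines and 4 lower (41.9% of all genes called, 22.9% higher and 19.0% lower). Fgf3, named after its values were seen, had 38.2 FPKM (KO3.34) and 20.5 FPKM (KO2.6) at cXENp3, against 1.17 (WT3) and 0.51 (Rescue3.34). XENB1 had 35.2 FPKM of Fgf3 and XEN5 24.0. Fgf3 differed by 4.0 ± 0.62 (SE, 2 lines against 2, adjusted p = 0.00113). Fgf17 had 13.1 and 12.9 FPKM in the Zfp281-present lines at cXENp3 against 2.45 and 0.65 in the knockout lines, and is listed at 0 in XENB1 and at 0.25 in XEN5. Knockout and Zfp281-present lines did not overlap in either ligand at cXENp3, and the share of all genes separated in this way was not computed.

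**Figure D4:**
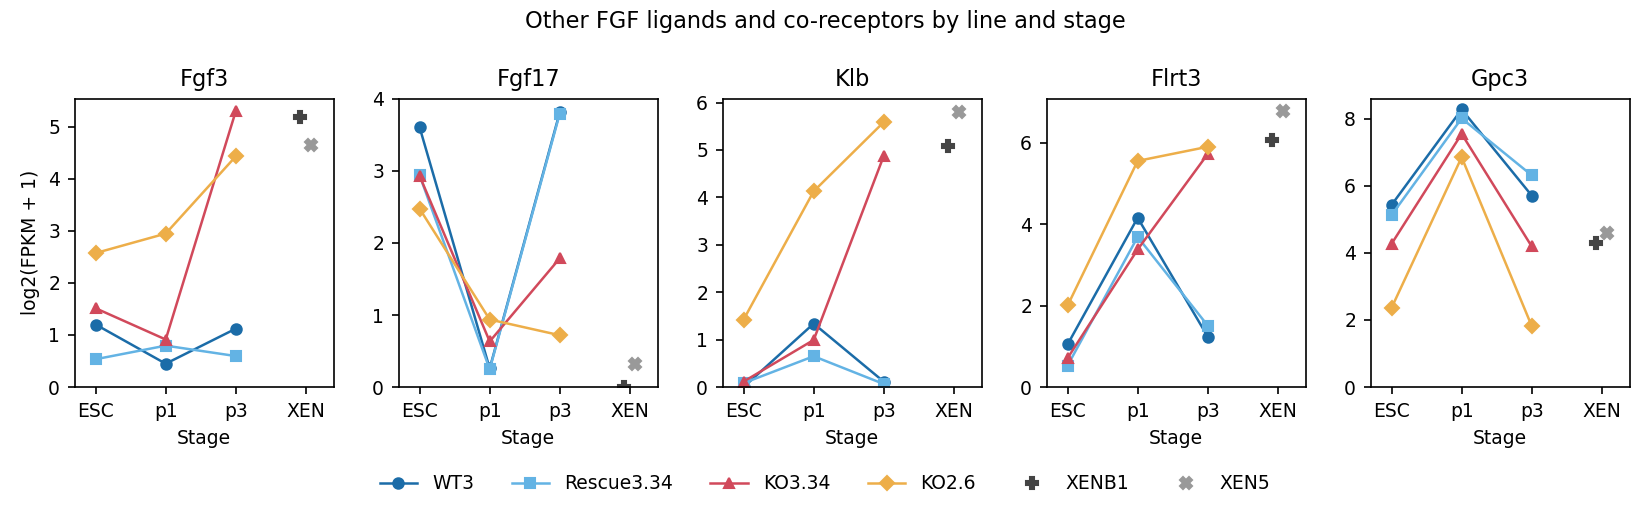
Level of Fgf3, Fgf17, Klb, Flrt3 and Gpc3 as log2(FPKM + 1) (vertical axes, which differ between panels) at the ESC, p1 and p3 stages, with 1 library per point; joined points are the 4 lines of the course, and the plus and cross are the XEN lines. At p3 both knockout lines lie above both Zfp281-present lines in Fgf3, Klb and Flrt3 and below them in Fgf17 and Gpc3.

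In XEN lines against ESCs, 34 of 74 were called higher and 8 lower (41.9% of all genes called, 22.2% higher and 19.7% lower), with a median of 0.61 beside -0.02 over all genes. The 3 with the largest rise were Flrt3 (5.34 ± 0.45 SE, adjusted p = 0.000102), Klb (5.04 ± 0.46, 0.000147) and Flrt2 (4.03 ± 0.23, 2.15e-05). Fgf17 (-2.83), Spry1, another Sprouty gene (-2.80 ± 0.36, adjusted p = 0.000753), and Fgf15 (-2.42) fell most. Against the knockout lines at cXENp3, 4 of 80 were lower in the XEN lines and none higher, near the 4.12% of all genes called (2.64% lower): Fgf14 (-1.85 ± 0.21, adjusted p = 0.00103), Il17rd (-1.63), Fgf5 (-1.59) and, outside the naming rule, Fos (-1.57).

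The genes whose levels followed each of the 10 most closely were read from Pearson correlations of log2(FPKM + 1) over the 14 libraries with 13385 other genes. The libraries share stages and lines, so these are descriptions without a test. Fgf4 was nearest to the pluripotency genes Esrrb and Tcl1 (both r = 0.98). Fgfr1 was nearest to St6gal1 (r = 0.96) and Rnf145 (0.95), and Fgfr2 to Arg1 (0.98) and Casd1 (0.96). Fgfr3 was nearest to Tfec and Slc39a8 (both 0.98) and Fgfr4 to Fem1a and Manbal (both 0.98), while Fgfr3 and Fgfr4 had r = 0.95 with each other. Spry2 had Etv4 (0.95) and Klf5 (0.94) as its nearest, Etv4 had Spry2 (0.95) and Spry4 (0.93), and Spry4 had Ctbp2 (0.96) and Manba (0.94). Etv5 was nearest to Fgf17 (0.96) and Nphs1 (0.95). Dusp6 had the lowest best match of the 10, Shc1 at 0.87 and Rraga at 0.85, and its closest relation among the 10 was Fgfr2 at 0.38.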

How the data were processed

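Libraries were polyadenylated RNA-seq, and the authors deposited 1 table of FPKM values per gene and library. STAR 2.5.3, Cufflinks 2.1.1 and build mm9 are named per the submitters' processing notes; the annotation and options are not given in the sources used here. All 14 columns matched a sample title. The sum of FPKM over a library ran from 424406 to 718138, and read depth is unknown, so no counting error can be given. FPKM from Cufflinks can be listed at 0 for highly expressed or merged loci, and whether a 0 means no transcript cannot be read from the file. None of the 10 genes' loci overlaps another deposited locus.

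Values were analysed as log2(FPKM + 1) with limma 3.58.1 (eBayes with trend) in R 4.3.3, keeping genes at 1 FPKM or more in at least 2 fitted libraries. Stages were compared over the course's 12 libraries, blocking on line, because the labels give the same cell lines at each stage. Knockout differences and interactions used 6 groups of 2 without a block. XEN lines were compared with 4 ESC libraries, and with the knockout cXENp3 libraries in a fit of all 14. The genes named are the 10, Zfp281, up to 3 called genes per direction of the wider pathway in each comparison, and the 2 best correlated genes per member. The members and lists were chosen with earlier results of these data known. The models were tested on simulated data in which 200 genes had a log2 change of 2, of which 46% to 81.5% were recovered by comparison (46% for the interaction of cXENp3 over ESC). The simulated errors were normal and independent between genes, and the real comparisons called 5 to 5528 genes. Recovery depends on how many genes change, so these rates need not hold for the real data.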

Additional observations from a re-analysis of the deposited data

Results flagged for a closer look

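In ESCs, Fgf4 in KO3.34 (175 FPKM) lay far above the other 3 lines, which had 78.3 to 83.4 FPKM. At cXENp1, Fgfr4 in KO2.6 (5.94 FPKM) lay far above the other 3, at 0.64 to 0.88 FPKM. These came from 30 groups of 4 libraries (10 genes at 3 stages) under Dixon's test, and chance marks about 1 in 20 such groups.

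The effect of losing Zfp281 differed between stages for 5 genes, by limma interaction tests. Between cXENp3 and ESC the knockout difference changed by 3.55 for Fgfr3, 3.31 for Fgfr4, -2.55 for Etv5 and -3.53 for Fgf4. Between cXENp3 and cXENp1 it changed by -2.06 for Spry2 and -2.98 for Etv5. Of all genes, 22.6% were called in the first of these interactions and 11.4% in the second. Each call listed here was lost when WT3 was left out, as given above.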

How the results depend on the processing

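Of 110 results for the 10 genes (11 comparisons each), 32 were called. Their 415 alternatives kept the call 354 times, lost it 61 times and reversed none. The 1042 alternatives of results not called gained a call 24 times and changed the sign of an uncalled value 49 times. Leaving out the line as a replicate block, or adding it to the interactions, was tried for 60 results and lost 2 calls, both of Fgfr1, given above; knockout differences within a stage are between lines and could not be blocked. The number of genes called between stages was 3383 (cXENp1 against ESC), 860 (cXENp3 against ESC) and 827 (cXENp3 against cXENp1) without the replicate block, against 3760, 1233 and 983 with it. It was 4, 2999 and 1583 with the block for the interactions at cXENp1 over ESC, cXENp3 over ESC and cXENp3 over cXENp1, against 5, 2975 and 1510 without.

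Other counts moved by over 1.5 times, and the cause was not tested. For cXENp1 against ESC the count was 2369 with a mean of at least 5 FPKM and 439 once a prefix term was added. For cXENp3 against ESC it was 460 without a filter, 725 with the mean filter and 0 with the prefix (3655 at an unadjusted p under 0.05). For cXENp3 against cXENp1 it was 409 with the mean filter. Knockout counts in ESCs (260) were 160 with quantile normalization and 21 with the prefix. At cXENp1 (64) they were 19 with a pseudocount of 0.1, 136 without a filter, 13 with the mean filter, 100 with quantile normalization and 102 with the prefix. The interaction of cXENp1 over ESC (5) gave 1 with a pseudocount of 0.1, 26 without a filter, 1 with the mean filter and 3 with quantile normalization, and XEN lines against knockout cXENp3 (551) gave 236 with the mean filter.

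Leaving out a line, or 1 of 3 libraries chosen after the data were seen, gave 1244 to 3749 genes for cXENp1 against ESC, 0 to 2596 for cXENp3 against ESC and 123 to 1059 for cXENp3 against cXENp1. Knockout counts ran from 1 to 1993 in ESCs, 3 to 638 at cXENp1 and 1057 to 6150 at cXENp3. Interactions ran from 0 to 52, 1 to 4300 and 5 to 2362 in the order above. XEN counts ran from 2098 to 6235 against ESCs and 87 to 881 against the knockout lines. Quantile normalization shifted the median of all genes at cXENp3 from 0.01 to -0.10 for knockout lines and changed the share of calls that were upward from 60.7% to 47.9% for the interaction of cXENp3 over ESC, 57.2% to 47.2% for cXENp3 against ESC, 75% to 64% for knockout at cXENp1, 54.6% to 45.5% for knockout at cXENp3 and 35.9% to 50.1% for XEN lines against knockout lines.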
